A study of Mus musculus with 11 samples.

Results

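Gpr83, Foxp3, Nrp1 and Lrrc32 are 4 genes that mark regulatory T cells, the CD4+ T cells that restrain immune responses. They were followed here in splenic T cells of cereblon knockout and wild-type mice. The genes were chosen by name, with earlier results of these arrays known, and every probe set that the platform's annotation assigns to 1 of these symbols alone was used. That gave 7 probe sets of 34958 with a single symbol, for 3 of the 18194 genes measured: 2 for Gpr83, 1 for Foxp3 and 4 for Nrp1. Lrrc32, whose product GARP displays latent TGF-beta on the surface of regulatory T cells, was not analysed here, since the annotation used here lists no probe set under its symbol alone. Which of the comparisons led to the choice is not recorded, so all values of these genes below are a description, without p-values.

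The study asked how loss of cereblon, the protein that thalidomide binds and that picks substrates for a ubiquitin ligase, alters gene expression in T cells at rest and after stimulation. T cells came from spleens of female mice aged 3 to 4 months and were enriched by removing other cells with magnetic beads. The groups were naive crbn-/- cells (C57BL6 crbn-/-, below KO, 3 arrays), naive C57BL6 wild-type cells (WT, 3 arrays), crbn-/- cells after 12 hours with plate-bound anti-CD3 at 5 µg/ml and soluble anti-CD28 at 1 µg/ml (3 arrays), and wild-type cells given the same stimulation (2 arrays). Naive is the labels' word for the cells not given this stimulation and is used here in that sense alone. The labels name the arrays of a group biological replicates. They do not say how animals were shared or pooled among them, so an error below measures the spread between arrays, which may be technical. They list no culture kept 12 hours without stimulation, so stimulation and time in culture cannot be told apart.

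Foxp3 is the transcription factor that defines the regulatory T cell lineage. GPR83 is a G protein-coupled receptor that was first found as a glucocorticoid-induced transcript and belongs to the transcripts enriched in regulatory T cells. Neuropilin-1, the product of Nrp1, is a co-receptor for semaphorins and VEGF, marks many thymus-derived regulatory T cells in the mouse, and is also made by plasmacytoid dendritic cells and endothelium.

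The annotated start regions of Gpr83, the gene that separated the groups, and of Foxp3, the lineage-defining gene, are shown for sequence context. Each spans 250 bases before to 50 bases after the start of a RefSeq transcript on the plus strand of GRCm38.p6, Gpr83 at chr9:14859960-14860259 and Foxp3 at chrX:7579426-7579725. Capitals mark TATAAA, the letters of a TATA box.
Gpr83: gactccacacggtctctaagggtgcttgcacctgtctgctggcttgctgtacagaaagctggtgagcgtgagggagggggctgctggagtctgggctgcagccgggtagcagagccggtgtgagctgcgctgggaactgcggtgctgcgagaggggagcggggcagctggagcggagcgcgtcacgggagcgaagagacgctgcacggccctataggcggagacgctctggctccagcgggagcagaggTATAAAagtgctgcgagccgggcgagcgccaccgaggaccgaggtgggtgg
Foxp3: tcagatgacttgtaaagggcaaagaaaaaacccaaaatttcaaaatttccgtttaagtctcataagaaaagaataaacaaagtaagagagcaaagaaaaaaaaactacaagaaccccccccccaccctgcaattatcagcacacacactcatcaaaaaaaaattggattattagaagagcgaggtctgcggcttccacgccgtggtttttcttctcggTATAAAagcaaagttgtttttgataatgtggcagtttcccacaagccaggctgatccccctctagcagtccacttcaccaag
TATAAA was searched on both strands. It occurred 1 time in each window, starting 1 base before the start of the transcript used in Gpr83 and 32 bases before it in Foxp3. The GRCm38.p6 gene table begins Gpr83 at 14859880, before the Gpr83 window, so the position holds for this transcript start only. A second Foxp3 start region and the Nrp1 start region on chromosome 8 held 0 copies. Of 32851 promoter windows of this length, 4473 (13.6%) held it on either strand, and a match describes these letters only. The Gpr83 window was 67% G and C and the Foxp3 window 40.7%.

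Crbn, the targeted gene, checked the labels. Its probe set read 8.97, 9.07 and 8.91 in naive KO cells and 10.06, 10.21 and 10.09 in naive WT cells, on the log2 RMA scale used for all levels here. In activated cells it read 8.70, 8.77 and 8.58 in KO and 9.71 and 9.47 in WT. KO was lower by 1.13 (SE 0.085, limma adjusted p = 8.7e-05) in naive and by 0.90 (SE 0.095, adjusted p = 0.0041) in activated cells, and whether the probes lie in the deleted part is not stated in the sources used here. Without WT activated replicate 1 the activated difference was -0.78 (adjusted p = 0.085), and on the compared arrays alone its adjusted p was 0.059. Pan-T-cell transcripts were bright in all groups: the mean of 7 markers lay between 11.75 and 11.80 in naive KO cells, 11.67 and 11.83 in naive WT cells, 11.09 and 11.19 in activated KO cells and 11.24 and 11.31 in activated WT cells.

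Gpr83 was lower in KO than in WT cells on both of its probe sets, at rest and after stimulation. The brighter probe set, which stands for the gene below, read 8.01, 8.09 and 8.23 in naive KO cells, against 8.51, 8.65 and 8.55 in naive WT cells. In activated cells it read 7.71, 7.94 and 7.89 in KO, against 8.40 and 8.27 in WT. Every KO array lay below every WT array of the same state, and the highest naive KO array also lay below the lowest activated WT array.

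The group means were 8.11 ± 0.11 in naive KO cells and 8.57 ± 0.07 in naive WT cells (SD, n = 3 each), a difference of -0.46 (SE 0.085), or 1.38-fold lower in KO. In activated cells they were 7.85 ± 0.12 in KO (SD, n = 3) and 8.34 ± 0.10 in WT (SD, n = 2), a difference of -0.49 (SE 0.095), or 1.41-fold lower in KO. For orientation, 342 of the 18194 genes had a more negative difference in naive cells and 40 in activated cells. The RNA is that of a mixed T cell population, so fewer regulatory T cells and less Gpr83 RNA per cell cannot be told apart.

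The second Gpr83 probe set gave a wider gap. It read 7.55, 7.32 and 7.38 in naive KO cells, against 8.03, 8.07 and 8.03 in naive WT cells. The activated values were 7.14, 7.24 and 6.97 in KO, against 7.84 and 7.68 in WT. The differences were -0.63 in naive cells, or 1.55-fold lower in KO, and -0.64 in activated cells, or 1.56-fold lower. Probe sets of 1 gene share the same RNA and are not replicates of each other.

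Stimulation went with a smaller step in Gpr83 than genotype did. The activated minus naive difference was -0.26 (SE 0.085) in KO cells and -0.23 (SE 0.095) in WT cells on the brighter probe set, and -0.30 in KO and -0.28 in WT on the second. The KO response minus the WT response was -0.03 (SE 0.13) on the brighter probe set. Both probe sets placed the groups in 1 order, from activated KO through naive KO and activated WT up to naive WT, and no neighbouring groups overlapped. The share of all genes whose groups lie apart in this way is not given here, so the separation is not shown to be unusual. The same limit applies to groups without overlap described for other genes below.

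**Figure D1:**
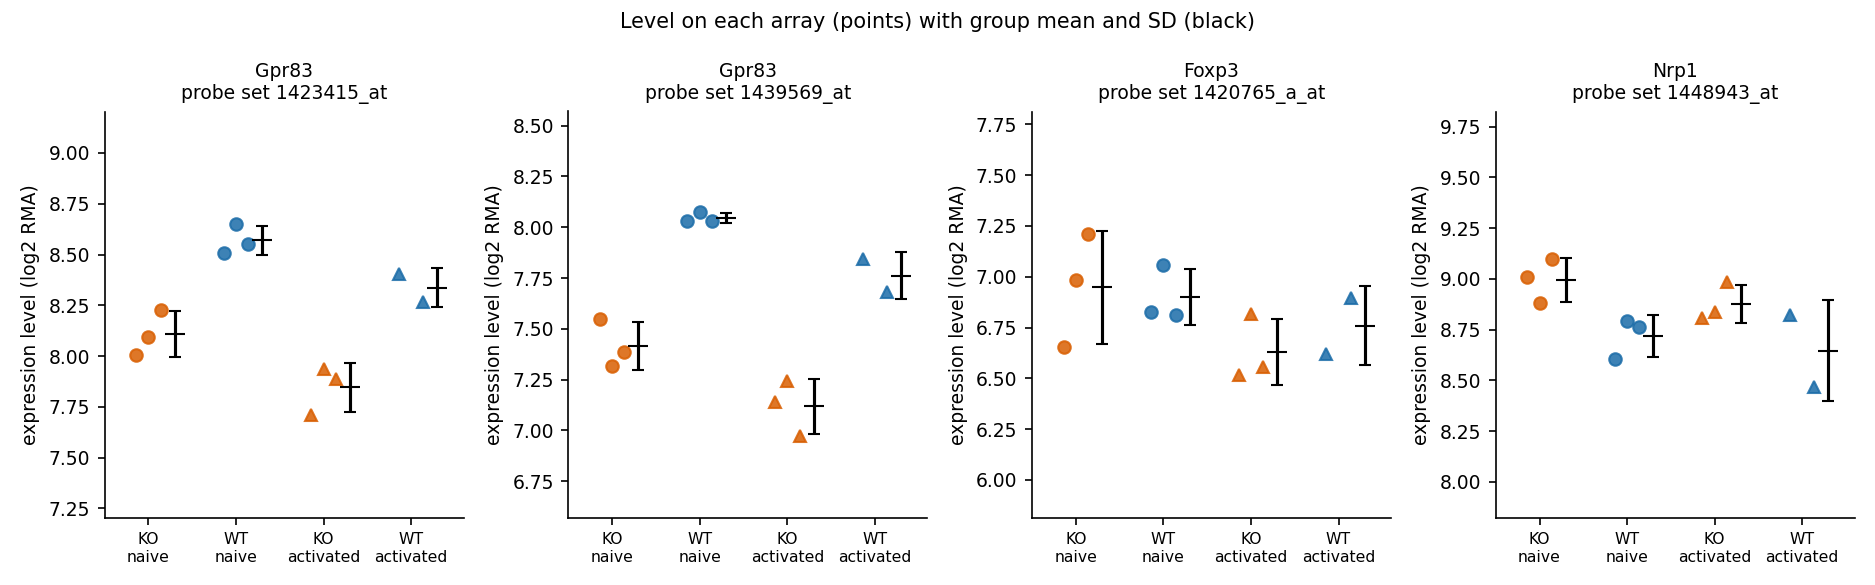
Levels of both Gpr83 probe sets, of Foxp3 and of the brightest Nrp1 probe set on each of the 11 arrays (y axis, log2 RMA), by group along the x axis, with the group mean and SD in black and the same axis span in each panel. Gpr83 separates the 4 groups without overlap (8.01 to 8.23 in naive KO, 8.51 to 8.65 in naive WT), whereas the Foxp3 groups overlap.

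Foxp3 itself did not separate the genotypes. It read 6.66, 6.98 and 7.21 in naive KO cells, against 6.83, 7.06 and 6.81 in naive WT cells. After stimulation it read 6.52, 6.82 and 6.56 in KO, against 6.62 and 6.90 in WT. The naive KO arrays spanned more than the naive WT arrays and enclosed them, and the activated groups also overlapped.

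The Foxp3 means were 6.95 ± 0.28 in naive KO and 6.90 ± 0.14 in naive WT cells (SD, n = 3 each), a difference of 0.05 (SE 0.14). In activated cells they were 6.63 ± 0.16 in KO (SD, n = 3) and 6.76 ± 0.19 in WT (SD, n = 2), a difference of -0.13 (SE 0.15). With stimulation the difference was -0.32 (SE 0.14) in KO and -0.14 (SE 0.15) in WT, and the KO response minus the WT response was -0.18 (SE 0.20). The naive difference of Foxp3 was smaller than its SE.

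Nrp1 pointed the other way from Gpr83, with higher levels in KO cells. Its brightest probe set read 9.01, 8.88 and 9.10 in naive KO cells, against 8.60, 8.79 and 8.76 in naive WT cells. In activated cells it read 8.81, 8.84 and 8.98 in KO, against 8.82 and 8.47 in WT. The naive groups did not overlap, while WT activated replicate 1 lay within the range of the activated KO arrays and replicate 2 well below it.

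The difference was 0.28 (SE 0.10) in naive cells, or 1.21-fold higher in KO, and 0.23 (SE 0.11) in activated cells, or 1.17-fold higher. The activated value rested on the WT arrays: it was 0.41 without WT activated replicate 1 and 0.055 without replicate 2. The other 3 Nrp1 probe sets were also higher in KO on average, by 0.09 to 0.22 in naive and 0.17 to 0.26 in activated cells. One of them read 7.67, 7.51 and 7.80 in naive KO against 7.38, 7.44 and 7.49 in naive WT cells, and 7.42, 7.67 and 7.82 in activated KO against 7.41 and 7.37 in activated WT cells, without overlap in either state. The dimmest one overlapped between genotypes in both states.

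On 3 of the 4 Nrp1 probe sets the activated minus naive differences were small, lying between -0.12 and 0.02 in KO and between -0.07 and -0.04 in WT cells. The dimmest probe set differed from them: it read 6.05, 5.81 and 6.46 in activated KO against 5.64, 5.59 and 5.72 in naive KO cells, and 6.08 and 5.80 in activated WT against 5.44, 5.59 and 5.65 in naive WT cells. That was 0.46 higher in KO and 0.38 higher in WT, without overlap. The direction of Nrp1 with stimulation therefore depended on the probe set, while its direction with genotype did not.

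**Figure D2:**
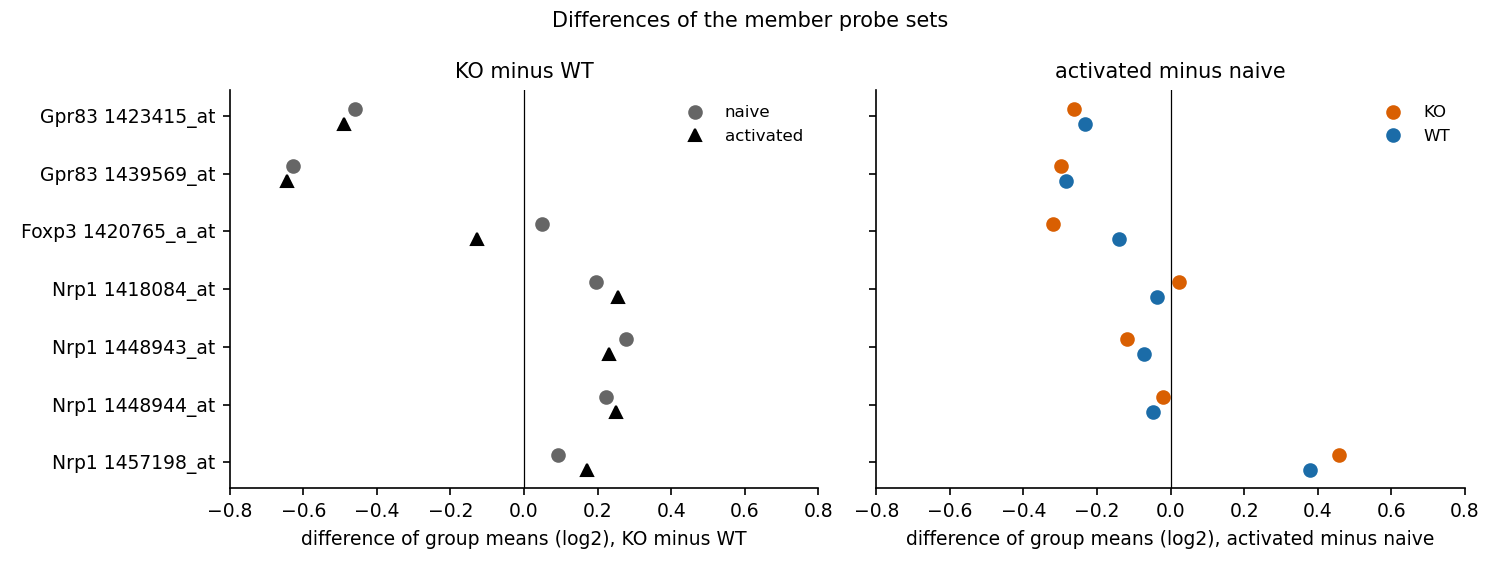
Differences of group means (x axis, log2) for the 7 probe sets of Gpr83, Foxp3 and Nrp1 (rows), KO minus WT at left and activated minus naive at right. Both Gpr83 probe sets lie left of 0 in every comparison, from -0.64 to -0.23, and all 4 Nrp1 probe sets lie right of 0 for genotype.

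Read against all genes, the limma fit called few genes for genotype and many for stimulation. At an adjusted p under 0.05, 0.0769% of the 18194 genes were higher and 0.0715% lower in naive KO than WT cells, and 0.044% were higher and 0.0165% lower in activated KO than WT cells. Of the 3 measured genes 0 passed in either genotype comparison, Gpr83 included. Stimulation called 20.7% higher and 22.4% lower in KO cells, where Gpr83 was the 1 of 3 that passed, and 20.2% higher and 20.9% lower in WT cells, where 0 of 3 passed. The interaction called 0% of genes, 0 of 3 among them, with 2515 genes at an unadjusted p under 0.05. Since these contrasts may have led to the choice of the genes, the member counts carry no weight. They also changed with single arrays and with the method. For genotype in naive cells Gpr83 crossed the threshold in 4 of 18 alternatives. These were the mean of its probe sets, a variance trend with a robust prior, a replicate block, and leaving out WT naive replicate 3. In activated cells it crossed in 1 of 18, the mean of its probe sets. For stimulation in KO, Gpr83 missed the threshold without KO naive replicate 3 or KO activated replicate 1, and Foxp3 crossed it in 3 of 18. For stimulation in WT, Gpr83 crossed it in 2 of 18. The genotype and stimulation comparisons share arrays.

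Other genes of regulatory T cells were taken from a list of 30, of which 27 were measured. Over all genes 0.148% passed for genotype in naive and 0.0605% in activated cells. A genotype count of 0 in this list or those below is near these shares and does not show equal levels. In naive cells 1 rose and 0 fell in KO, with a median difference of 0.08 against 0.01 over all genes, and in activated cells 0 passed in either direction (median 0.04 against -0.02). The 1 gene was Ccr6, a chemokine receptor shared by regulatory T cells, Th17 cells and B cells, at 7.94 ± 0.04 in naive KO and 7.43 ± 0.08 in naive WT cells (SD, n = 3 each), a difference of 0.52 (SE 0.074, limma adjusted p = 0.019). The 6 measured B cell markers averaged 7.40 to 8.33 in naive KO arrays and 7.22 to 7.51 in naive WT arrays, with a median difference of 0.43 and 0 of 6 past the threshold, and their part in the Ccr6 result was not tested. Fitted on the compared arrays alone, Ccr6 had an adjusted p of 0.062, and it also missed the threshold without KO naive replicate 2 or 3 or without WT naive replicate 1 or 2.

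Izumo1r lies next to Gpr83 on chromosome 9 and encodes folate receptor 4, a surface protein of regulatory T cells. It read 9.33, 9.29 and 9.52 in naive KO cells, against 9.40, 9.56 and 9.71 in naive WT cells. In activated cells it read 8.56, 8.53 and 8.70 in KO, against 8.96 and 9.17 in WT. The naive groups overlapped and the activated ones did not, with differences of -0.18 (adjusted p = 0.43) and -0.47 (SE 0.11, adjusted p = 0.292), neither past the threshold. Among the 5 measured genes on each side of Gpr83, picked after the values were seen, 0 passed in a genotype comparison: the naive differences ran from -0.33 for Mre11a, a DNA repair nuclease, to 0.27 for Fut4, a fucosyltransferase.

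Stimulation moved many of these regulatory T cell genes in both genotypes. In KO cells 16 of 27 rose and 7 fell, and in WT cells 14 rose and 6 fell, 14 and 6 of them shared. The rising share was 59.3% in KO and 51.9% in WT, against 20.7% and 20.2% of all genes, and the falling share was 25.9% in KO and 22.2% in WT, close to the 22.4% and 20.9% of all genes. Il2ra, the high-affinity chain of the IL-2 receptor, rose by 3.37 in KO and 2.90 in WT cells. Tnfrsf9, the costimulatory receptor 4-1BB, rose by 3.01 in KO and 2.98 in WT. Plagl1, a zinc finger transcription factor, rose by 2.13 in KO and 2.04 in WT. Il2ra and Tnfrsf9 are known to be induced in activated conventional T cells as well. Since the RNA is that of a mixed T cell population, neither the rises nor the falls of this list can be assigned to regulatory T cells.

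The genes that fell were thus about as frequent as among all genes. They included the integrin chain Itgae (CD103), by -2.64 in KO and -2.30 in WT cells. Ctla4, the inhibitory receptor that competes with CD28, changed by -1.87 in KO and -1.33 in WT. Ikzf2, encoding Helios, a transcription factor of thymus-derived regulatory T cells, changed by -1.14 in KO and -1.04 in WT. Each of these stimulation changes had a limma adjusted p under 0.05, and 0 of the 27 genes passed in the interaction.

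**Figure D3:**
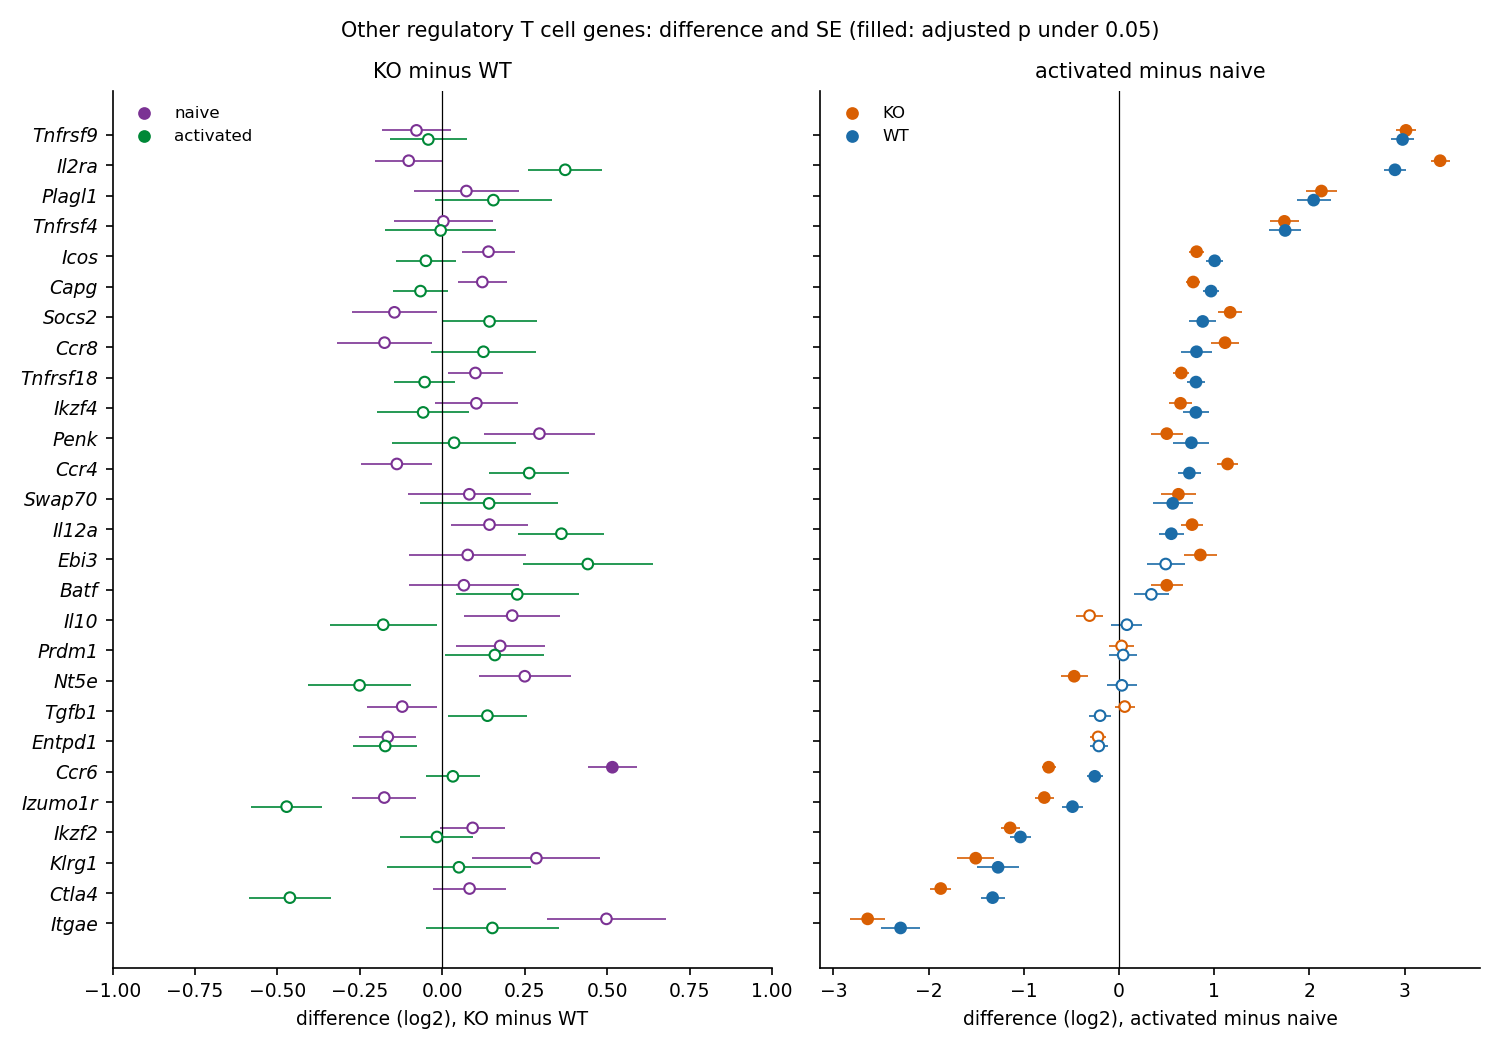
Differences with SE (x axes, log2) of the 27 other measured regulatory T cell genes (rows), KO minus WT at left and activated minus naive at right, with filled points for an adjusted p under 0.05. One point of the genotype panel is filled, Ccr6 in naive cells at 0.52, while Il2ra reaches 3.37 and Itgae -2.64 with stimulation in KO cells.

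Genes that act on Foxp3 were described the same way. Of 30 measured regulators 0 passed in either genotype comparison (medians 0.01 naive and 0.02 activated). Uhrf1, which recruits the maintenance DNA methyltransferase, had the lowest p in naive cells, with a difference of -0.94 (adjusted p = 0.152), and Nfatc2 in activated cells, with 0.24 (adjusted p = 0.579). With stimulation 10 rose and 11 fell in KO and 9 rose and 11 fell in WT cells. That is 33.3% and 36.7% of the list in KO, against 20.7% and 22.4% of all genes, and 30% and 36.7% in WT, against 20.2% and 20.9%. Nr4a3, an immediate-early nuclear receptor, rose by 3.15 in KO and 3.09 in WT, and Stat5a, which carries the IL-2 signal to Foxp3, by 2.08 and 1.78. Rel, the NF-kappaB subunit that acts on Foxp3 enhancers, rose by 1.38 in KO and 1.28 in WT, and Nr4a2 by 1.27 and 1.65. Foxo1, a factor that sustains Foxp3 expression, changed by -1.84 in KO and -1.87 in WT.

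Lrrc32's pathway, the storage and release of TGF-beta, could be read from 18 other genes. For genotype 0 of 18 passed in either state. Furin, the protease that cleaves the TGF-beta precursor, had the lowest p in activated cells, with a difference of 0.45 (adjusted p = 0.227), and Smurf2, a ubiquitin ligase acting on TGF-beta receptors, in naive cells, with -0.24 (adjusted p = 0.188). With stimulation 4 rose and 8 fell in KO and 5 rose and 8 fell in WT cells. The rising share, 22.2% in KO and 27.8% in WT, was near the 20.7% and 20.2% of all genes, and the falling share was 44.4% in both, against 22.4% and 20.9%. The receptors moved in both directions. Tgfbr1, the kinase chain that signals to Smads, rose by 0.76 in KO and 0.72 in WT, as did Furin (1.24 in KO, 0.91 in WT) and the integrin chains Itgav (1.18 in KO, 0.96 in WT) and Itgb8 (1.00 in KO, 0.85 in WT), which together release active TGF-beta. The receptor chains Tgfbr2 (-1.57 in KO, -1.32 in WT) and Tgfbr3 (-1.29 in KO, -1.13 in WT) fell, as did the inhibitory Smad7 (-2.26 in KO, -2.02 in WT).

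Among 16 ligands and partners of neuropilin-1, 0 passed for genotype. Plxna1, a plexin that signals with neuropilins, had the lowest p in naive cells (-0.38, adjusted p = 0.140), and Plxnd1 in activated cells (0.25, adjusted p = 0.683). With stimulation 3 rose and 1 fell in KO, and 1 rose and 1 fell in WT cells. These shares, 18.8% rising and 6.25% falling in KO and 6.25% each in WT, were below those of all genes. Some genes of this list were dim, such as Sema3c at 4.53 to 4.91, against a median gene level of 6.63. Shares were not matched for level in this list or the others. The 1 that fell was Sema4a, a semaphorin that binds neuropilin-1 on regulatory T cells (-3.14 in KO and -2.89 in WT). The rising plexins were Plxna1 (0.78), Plxnd1 (0.46) and Plxna3 (0.34) in KO and Plxna3 (0.22, adjusted p = 0.041) in WT, the last of which lost its call in 11 alternatives.

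Of 9 genes around GPR83 signalling, 0 passed for genotype. Pcsk1n, whose product proSAAS yields a peptide ligand of GPR83, lay between 5.62 and 5.96 on every array, and 0 of its comparisons passed. Arrb1, a beta-arrestin that desensitises such receptors, had the lowest p in both states, with -0.18 in naive (adjusted p = 0.406) and -0.45 in activated cells (adjusted p = 0.292). With stimulation 1 rose and 4 fell in KO and 1 rose and 3 fell in WT. The falling share was 44.4% in KO and 33.3% in WT, against 22.4% and 20.9% of all genes, over 9 genes alone. Arrb2 changed by -1.97 in KO and -1.96 in WT, the inhibitory G protein subunit Gnai2 by -1.26 and -1.21, and Gnaq rose by 0.88 and 0.96.

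Because Gpr83 is a glucocorticoid-induced transcript, 8 other genes of that response were examined. For genotype 0 of 8 passed. Fkbp5, a chaperone of the glucocorticoid receptor, had the lowest p in naive cells (-0.21, adjusted p = 0.311), and Klf9 in activated cells (0.47, adjusted p = 0.355). With stimulation 0 rose and 5 fell in KO, and 1 rose and 5 fell in WT cells (medians -1.08 and -0.91). The falling share was 62.5% in both, against 22.4% and 20.9% of all genes. Dusp1, a MAP kinase phosphatase, changed by -4.76 in KO and -4.61 in WT, and Tsc22d3, encoding GILZ, by -3.76 and -3.17. The kinase Sgk1 changed by -2.99 in KO and -2.92 in WT, and the clock gene Per1 by -1.24 and -1.03.

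The pattern of Gpr83 over the 11 arrays was most like that of Crbn itself, with Pearson r = 0.95 among the 9573 genes whose SD over the arrays was at least 0.5 of its own. Rab4a followed (r = 0.92), then Tmem181a (0.91), Ptpn14 (0.88) and Nnt (0.87). They lie on chromosomes 6, 8, 17, 1 and 13, and Gpr83 on chromosome 9. The arrays share group means, so these values describe a common genotype and stimulation pattern.

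Rab4a, a GTPase of endosome recycling, read 7.15, 7.10 and 6.78 in naive KO cells, against 9.08, 8.81 and 8.60 in naive WT cells. Stimulated KO cells read 6.13, 6.13 and 5.81, against 7.51 and 7.56 in stimulated WT cells. Nnt, a mitochondrial transhydrogenase, read 8.18, 8.27 and 7.98 in naive KO cells, against 9.21, 9.34 and 9.34 in naive WT cells. Its activated values were 8.27, 8.18 and 7.97 in KO and 8.98 and 8.71 in WT. Nnt is known to be disrupted in one C57BL/6 substrain and intact in others, and the labels give C57BL6 without a substrain. Whether a difference in substrain plays a part in the Gpr83 result was not tested.

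The 3 genes did not share 1 common pattern, although Gpr83 and Foxp3 were both lower on average after stimulation in each genotype. Nrp1 entered with its brightest probe set. Over the 11 arrays r was 0.50 for Gpr83 with Foxp3, -0.39 for Gpr83 with Nrp1 and 0.03 for Foxp3 with Nrp1. The genes most like Foxp3 were B3gntl1 (0.93), Abhd12 (0.90) and Hdac4 (0.88). Those most like Nrp1 were Mpp2 (0.94), Prm1 (0.93) and Gm2087 (0.93), the highest among 16041 candidates. Gm2087 had group means of 4.08 to 4.26, below the lowest lower quartile of the arrays (4.57). Prm1 read 7.08 on every activated KO array. Likeness at such levels may reflect background signal, which was not tested.

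**Figure D4:**
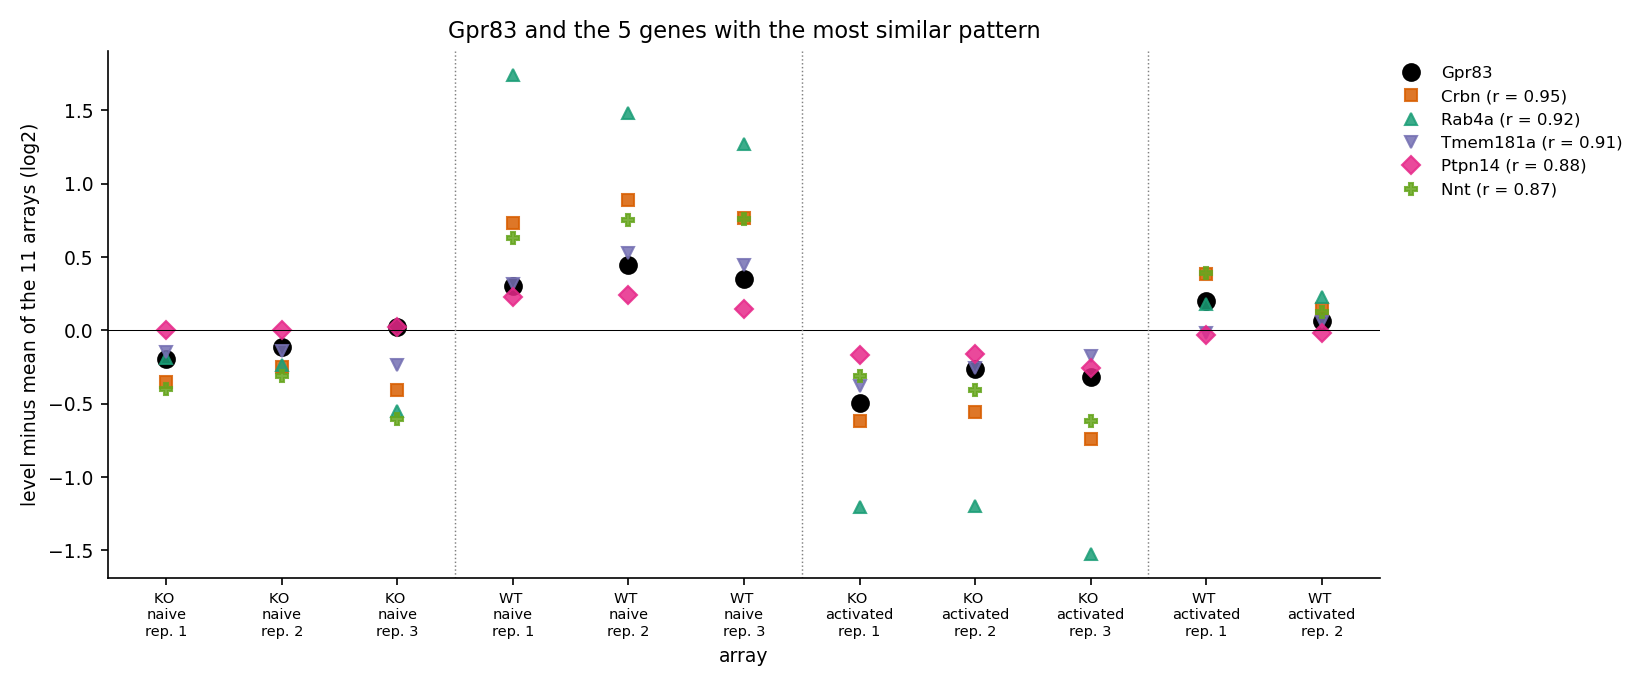
Level of Gpr83 and of the 5 genes with the highest Pearson r to it, each minus its mean over the 11 arrays (y axis, log2), for every array (x axis). The genes are low in KO and high in WT arrays of the same state, with Rab4a spanning the widest range and Gpr83 a narrower one.

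Markers of other cells were read beside these results. Of 45 measured markers of other cells in 8 lists, 0 passed in either genotype comparison, and the same held for the T cell markers. Over all genes 0.148% passed in naive and 0.0605% in activated cells, so these counts are near the share of all genes and do not show equal levels. The 7 plasmacytoid dendritic cell markers, of interest because those cells make neuropilin-1, averaged 8.39 to 8.41 in naive KO and 8.24 to 8.33 in naive WT arrays, and 8.28 to 8.40 in activated KO and 8.24 to 8.29 in activated WT arrays. Their average was thus higher in naive KO arrays without overlap, though the ranges lay close together. Of the single markers 6 were higher and 1 lower in naive KO cells, with 0 past the threshold. Siglech overlapped, at 6.58 to 6.89 in naive KO and 6.37 to 6.67 in naive WT arrays, and Bst2 differed by -0.005. Ccr9, the brightest of them in naive cells, also overlapped, at 10.80 to 11.10 in KO and 10.58 to 10.83 in WT arrays. Klk1 did not overlap, at 7.84 to 7.89 in naive KO and 7.72 to 7.80 in naive WT arrays. Whether the transcripts of these markers came from plasmacytoid dendritic cells was not tested. The part of these markers in the Nrp1 result was not tested. The 6 endothelial markers averaged 6.52 in each naive KO array and 6.37 to 6.53 in naive WT arrays. The 5 erythroid markers averaged 6.18 to 7.62 in naive KO and 7.36 to 8.80 in naive WT arrays, lower in KO on average but with overlap (median difference -1.59). In activated cells they averaged 5.78 to 6.54 in KO and 6.22 to 6.44 in WT arrays (median difference -0.21). Their part in the Gpr83 result was not tested.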

How the data were processed

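RNA from splenic T cells was read on 11 one-colour Affymetrix arrays. Per the submitters' processing notes, GCOS, RMA and Partek were used, in versions that the sources used here do not state. As the authors deposited them, log2 levels for 45101 probe sets ranged from 2.32 to 15.0 with column medians of 5.84 to 5.89 and were not rescaled. Precision is limited by the small number of arrays, and 0 sample columns were left unused. The platform's annotation gave 34958 probe sets 1 symbol, 932 several and 9211 none, and 34754 matched the GRCm38.p6 gene table, with 0 symbols differing. The brightest probe set over all arrays stood for each of 18194 genes.

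A model of 4 group means was fitted with limma 3.58.1 under R 4.3.3, using moderated variances (prior degrees of freedom 5.46, residual 7) and Benjamini-Hochberg adjustment over all genes. The procedure was tested on simulated data. Python 3.11.15, pandas 2.3.3 and matplotlib 3.10.9 made the summaries and figures. The genes described and all lists were chosen with earlier results of these data known. Named were Crbn, up to 4 genes of each list with the largest difference past the threshold in a comparison, otherwise the gene of lowest p, the 5 genes most like Gpr83 and the 3 most like Foxp3 and Nrp1, among genes whose SD was at least 0.5 of the member's. Ctla4, Ikzf2, Pcsk1n, Tgfbr1, Itgav, Itgb8 and the chromosome 9 neighbours of Gpr83 fall outside this rule and were named after their values were seen. Alternatives covered probe set choice, filtering, variance prior, compared arrays alone, a replicate block and leaving out each array.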

Additional observations from a re-analysis of the deposited data

How the results depend on the processing

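The Gpr83 difference between KO and WT kept its sign in 18 of 18 alternatives in each state, from -0.52 to -0.41 in naive and from -0.56 to -0.42 in activated cells when single arrays were left out. The Foxp3 sign held in 17 of 18 in each state. The Nrp1 difference between KO and WT ran from 0.22 to 0.33 in naive and from 0.055 to 0.41 in activated cells with single arrays left out. Its difference with stimulation in KO cells was 0.0853 as a mean of probe sets, against -0.12. Of 267 alternative values for the 3 genes 266 moved by less than the largest SD of the groups concerned. Leaving out an array always moves a group mean by less than the SD of its group. For those fits the outcome was thus fixed in advance, and the count does not measure how stable the differences are.

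The 27 genes called for genotype in naive cells became 15 among genes above the median level, 43 with a variance trend and robust prior, 13 on the compared arrays alone, 277 with a replicate block, and 10 to 341 with single arrays left out (341 without WT naive replicate 3, 74 without KO naive replicate 1, 17 without KO activated replicate 1, 12 or fewer without KO naive replicate 2 or 3 or WT naive replicate 1 or 2). The 11 called in activated cells became 7 above the median level, 2 on the compared arrays, and 1 to 28 with single arrays left out (1 without WT activated replicate 1, 4 without KO activated replicate 3, 28 without KO activated replicate 2). The interaction count of 0 became 1 with the replicate block and 0 to 4 with single arrays left out (4 without WT naive replicate 3, 1 without WT activated replicate 2). Uhrf1 in naive cells passed with the block (adjusted p = 0.018) and without WT naive replicate 3 (0.037). The 1 other regulatory T cell gene, Ccr6, became 0 on the compared arrays and 0 to 1 with single arrays left out. The cause was not tested. The labels do not say whether equal replicate numbers mark paired samples, and the correlations of deviations from the group means left this open. They ran from 0.016 to 0.39 for naive KO with naive WT and from 0.087 to 0.27 for activated with naive KO. For activated KO with activated WT they were 0.013 and 0.10, and for activated with naive WT -0.30 and -0.18. The interaction was not run on the compared arrays alone.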
